A study of Saccharomyces cerevisiae with 8 samples.

Results

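Binding of ORC and MCM2-7 was examined in the subtelomeric belt of the yeast chromosomes, defined as positions more than 10 and at most 40 kb from the nearer chromosome end. Binding events were taken from 6 ChIP-Exo lists by the position of each event on the R64 genome, and 1023 of all 9293 events lay in this belt. Events of all lists up to 500 bp apart were joined into loci, which gave 41 loci in the belt out of 352. They were compared with the chromosome interior, over 40 kb from both ends, which held 7629 events at 288 loci. The remaining 641 events at 23 loci lay within 10 kb of an end. Position alone chose the members, and no binding value was used. The loci nearest to the 10 kb limit lay at 10.9 kb inside the belt (on chromosome II, between the maltose genes MAL33 and MAL31) and at 8.49 kb outside it (ARS1024), and those nearest to the 40 kb limit at 39.6 kb (ARS305) inside and 40.03 kb (ARS1304) outside.

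Replication origins of budding yeast, also termed autonomously replicating sequences (ARS), are bound by the origin recognition complex (ORC), which loads the MCM2-7 helicase onto DNA as a double hexamer in G1-phase. Origins near telomeres are known as mostly late or inefficient, and ORC also acts there in silencing: at the silent mating-type cassettes HML and HMR, ORC bound to the E and I silencers helps to recruit the Sir proteins. Subtelomeric DNA further holds gene families such as hexose transporters, flocculins and maltases, whose copies on different chromosomes can be nearly identical.

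All cells were of the W303 background and carried a genomic FLAG tag, on Mcm4 in strain YC779 or on Orc2 in strain YC795, and anti-FLAG antibody was used throughout. Mcm4 (MCM2-7) and Orc2 (ORC) were profiled in G1-phase after arrest with the mating pheromone alpha-factor, and Orc2 also in G2-phase after arrest with nocodazole, a spindle poison, with 2 biological replicates each. The factors thus came from different strains, and each phase stands for a single kind of arrest. The Orc2 samples taken 24 min after release from G1-phase were not analysed here.

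In ChIP-Exo, an exonuclease trims the immunoprecipitated DNA up to the cross-linked protein. The lists give a single-base position per event and a whole-number score between 66 and a cap of 1000, in an order close to falling score. They held 861 to 2178 events, of which 6.97 to 59.1% were at the cap. Because of the cap, loci were ranked by list order: the place of a locus is the percentile of its first-listed event among the loci of that list, where 100 is the first and 0 the last. A place is relative to the other loci of 1 list and is not an amount of protein. Read counts are not in the lists, and the depth behind each event is not known.

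The loci were spread over nearly all chromosome ends. Of the 32 ends, 21 had 1 locus in the belt, 7 had 2 loci and 2 had 3 loci (II right and III left), whereas the left ends of VIII and XII had 0. By distance, 18 loci lay between 10 and 20 kb, 14 between 20 and 30 kb and 9 between 30 and 40 kb. The belt covered 960 kb, or 7.95% of the genome, and held 11.6% of the loci, that is 4.27 loci per 100 kb against 2.67 in the interior. The next locus was at a median of 16.5 kb in the belt and 24.2 kb in the interior, and 14 of 41 belt loci (34.1%, 95% Wilson interval 21.6 to 49.5) had a neighbour within 10 kb, compared with 40 of 288 interior loci (13.9%, 10.4 to 18.4). The Wilson intervals given here cover counting error only.

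**Figure D1:**
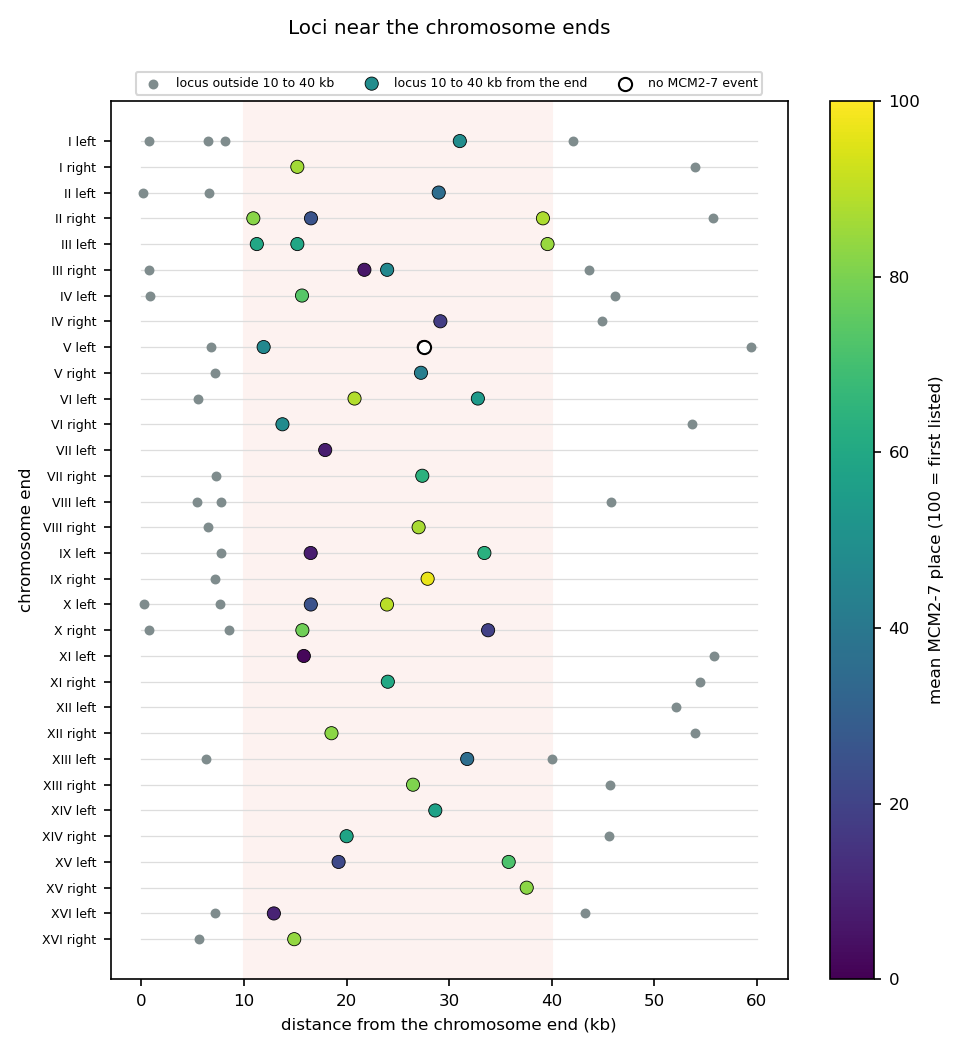
Distance of each locus from its chromosome end (x axis, kb) for the 32 ends (y axis). The shaded belt is 10 to 40 kb, its 41 loci are coloured by mean MCM2-7 place, the open circle marks the locus without an MCM2-7 event, and grey points are loci outside the belt. The left ends of VIII and XII have no locus in the belt.

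An annotated ARS overlapped 26 of the 41 belt loci (63.4%, interval 48.1 to 76.4) and 236 of the 288 interior loci (81.9%, 77.1 to 86.0). Conversely, 29 of the 33 ARSs annotated in the belt overlapped a locus. The other 4 were ARS228, ARS304, ARS1202 and ARS1603, whose nearest event lay 4279 to 20542 bp away. Of the 15 belt loci without an annotated ARS, 14 had an MCM2-7 place in both lists, with a median of 52.5, beside 59.4 at annotated ones. They included 3 of the 5 lowest places in the belt. The loci at 774045 on chromosome II and 535624 on chromosome VIII, with mean places of 87.7 and 86.8, were among the 5 highest. The remaining locus without an annotated ARS had no MCM2-7 event. In the interior the medians were 25.8 for the 52 loci without an annotated ARS and 51.5 for the 236 with one. Almost all belt loci were intergenic (40 of 41, compared with 273 of 288 in the interior). The exception, at position 774045 on chromosome II, lay in the gene HAB1. Of the others, 18 lay between genes in tandem, 15 between convergent and 7 between divergent genes.

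Each locus was searched on both strands for the ARS consensus sequence, the T-rich 11-bp core to which ORC binds, within 100 bp of its centre. At least 10 of its 11 letters were matched at 38 of 41 belt loci (92.7%, interval 80.6 to 97.5) and at 241 of 288 interior loci (83.7%, 79.0 to 87.5), against 18.8% of all 201-bp windows of the genome. All 11 letters were matched at 13 belt loci (31.7%, 19.6 to 47.0), at 98 interior loci (34.0%, 28.8 to 39.7) and in 1.23% of windows. The A+T content of the windows at the loci had a median of 71.1% in the belt and 70.6% in the interior. It was 61.7% over the windows of the genome, so this background was not matched for A+T content. A match is a description of the letters and not a proven binding site. The matches of the loci on which the results below turn are shown in capitals, read 5′ to 3′ on the strand of the match with 20 bases before and 50 bases after it, from the RefSeq R64 genome.

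ARS922 (chrIX:411941-412021, minus strand): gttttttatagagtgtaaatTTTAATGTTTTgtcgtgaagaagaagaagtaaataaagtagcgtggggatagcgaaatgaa
ARS305 (chrIII:39531-39611, minus strand): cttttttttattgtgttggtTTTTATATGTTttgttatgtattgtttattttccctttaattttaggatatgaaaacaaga
ARS600.4 (chrVI:20771-20851, minus strand): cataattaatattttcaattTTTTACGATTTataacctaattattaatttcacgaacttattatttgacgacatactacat
Chromosome II locus at 774045 (chrII:773978-774058, minus strand): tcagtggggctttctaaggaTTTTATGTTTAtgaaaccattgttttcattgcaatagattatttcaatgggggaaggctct
ARS301 (chrIII:11237-11317, plus strand): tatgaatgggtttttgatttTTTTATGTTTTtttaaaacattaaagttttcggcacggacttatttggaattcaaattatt
ARS317 (chrIII:292624-292704, minus strand): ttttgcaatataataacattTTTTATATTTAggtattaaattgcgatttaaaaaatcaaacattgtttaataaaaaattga
ARS318 (chrIII:294863-294943, plus strand): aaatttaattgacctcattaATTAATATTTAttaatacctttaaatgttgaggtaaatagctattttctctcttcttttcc
Chromosome VII locus at 17913 (chrVII:17945-18025, plus strand): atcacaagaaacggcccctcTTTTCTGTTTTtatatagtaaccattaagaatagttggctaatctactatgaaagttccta
ARS1123 (chrXI:642766-642846, plus strand): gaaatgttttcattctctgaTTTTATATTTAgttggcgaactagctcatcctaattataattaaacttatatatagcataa
ARS111, same letters as at the chromosome VIII copy (chrI:214974-215054, minus strand): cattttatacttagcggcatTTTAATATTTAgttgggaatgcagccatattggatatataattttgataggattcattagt
ARS403, same letters as at ARS1023 (chrIV:15619-15699, minus strand): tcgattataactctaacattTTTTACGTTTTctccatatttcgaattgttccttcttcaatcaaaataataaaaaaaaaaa
ARS904, same letters as at ARS1003 (chrIX:16466-16546, plus strand): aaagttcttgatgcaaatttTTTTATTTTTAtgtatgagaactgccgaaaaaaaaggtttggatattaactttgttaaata
Chromosome XI locus at 15829 (chrXI:15862-15942, minus strand): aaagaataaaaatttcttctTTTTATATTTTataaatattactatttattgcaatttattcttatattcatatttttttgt
Chromosome V locus at 27521 (chrV:27506-27586, plus strand): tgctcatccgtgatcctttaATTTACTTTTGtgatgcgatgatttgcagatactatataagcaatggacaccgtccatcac

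These sequences were chosen to show loci high in MCM2-7 (ARS922 to the chromosome II locus), loci high in ORC or low in MCM2-7 (ARS301 to ARS1123), loci with an identical copy (ARS111, ARS403 and ARS904) and the weakest loci (XI and V). At ARS922 the consensus was matched at 10 letters, and the first-listed events lay 16.0 bp (MCM2-7), 34.5 bp (ORC in G1) and 35.5 bp (ORC in G2) downstream of its centre, as means of the replicates. At ARS301 all 11 letters were matched and the corresponding offsets were 29.0, 26.5 and 33.5 bp. At ARS317 they were 48.0, 19.0 and 19.5 bp, where the G2 replicates lay 95 bp apart. Over the belt loci with at least 10 letters matched, the median offset was 20.5 bp for MCM2-7 (n = 38), 19.0 bp for ORC in G1 (n = 37) and 14.5 bp for ORC in G2 (n = 34), compared with 30.0, 19.0 and 16.5 bp in the interior. Thus in the belt and in the interior the first-listed events lay on the downstream side of the match in the median.

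The first comparison asked whether events were more frequent in the belt than in the interior. MCM2-7 events numbered 24.2 and 19.1 per 100 kb in the belt in replicates 1 and 2, and 15.1 and 13.3 in the interior. ORC events in G1 numbered 14.2 and 15.5 per 100 kb in the belt, against 8.71 and 10.5. ORC events in G2 numbered 24.5 and 9.17 per 100 kb, against 16.6 and 6.57. The density was higher in the belt in 6 of 6 libraries, on average by 0.59 ± 0.09 on the log2 scale (SD, n = 6), or 1.501-fold. The exact two-sided sign-flip permutation test over the 6 libraries gave p = 0.03125, the smallest value it allows, and 0.156 after Benjamini-Hochberg adjustment over 5 measures. The difference therefore did not pass the threshold of 0.05, and as all lists share the same chromosomes, the test covers the spread between libraries and not between loci.

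Besides the larger number of loci per kb given above, the number of events at each locus was compared. Per library, the belt loci with an event carried 2.35 to 5.88 events on average and interior loci 2.69 to 6.25, a mean difference of -0.19 ± 0.23 (SD, n = 6 libraries, exact sign-flip p = 0.125, adjusted 0.208). The share of events at the score cap was 11.4 to 56.5% in the belt and 6.63 to 58.7% in the interior (mean difference 0.54 ± 2.49 percentage points, exact p = 0.688, adjusted 0.688). Replicates shared events, within 50 bp, for 58.3 to 94.0% of belt events and 61.9 to 92.2% of interior events (mean difference -2.85 ± 3.87 percentage points, exact p = 0.125, adjusted 0.208). None of these differences passed the test.

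**Figure D2:**
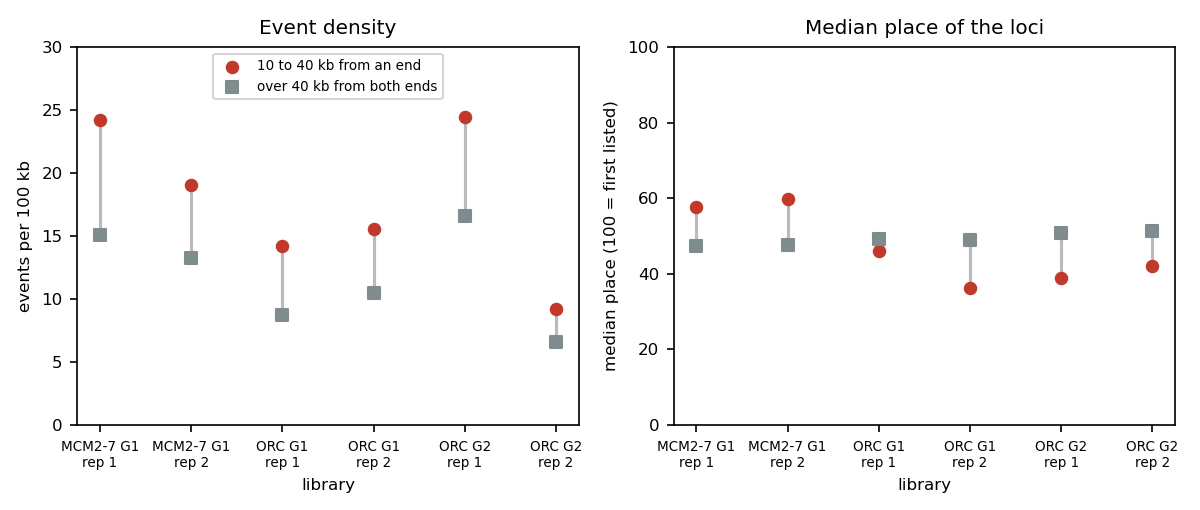
Events per 100 kb (left) and median place of the loci (right, 100 is the first listed) in each of the 6 libraries, for the belt (circles) and the interior (squares), with the values of a library joined by a line. Density is higher in the belt in 6 of 6 libraries, whereas the median place is higher in the belt for MCM2-7 and lower for ORC.

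The median place in the lists differed in direction between the factors. For MCM2-7 the median belt locus stood at 57.7 and 59.9 in replicates 1 and 2, and the median interior locus at 47.3 and 47.6. For ORC in G1 the belt medians were 46.1 and 36.2 and the interior medians 49.1 and 48.8. For ORC in G2 they were 39.0 and 42.1 in the belt and 50.7 and 51.2 in the interior. The belt was thus higher in both MCM2-7 lists, by 10.4 and 12.3, and lower in all 4 ORC lists, with differences of -3.01 to -12.6. Over all 6 lists the mean difference was -2.29 ± 11.1 (SD, exact sign-flip p = 0.594, adjusted 0.688).

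Part of this pattern moved with the outer end of the belt and with copied sequence. The median MCM2-7 place was 53.2, 59.8 and 63.7 at 10 to 20, 20 to 30 and 30 to 40 kb, whereas that of ORC in G1 was 30.2, 56.9 and 48.2 and that of ORC in G2 36.4, 59.2 and 50.2. Hence the low ORC places lay mainly at 10 to 20 kb, where 7 of the 18 loci had a near-identical copy elsewhere in the genome. Without any locus that has such a copy, the belt remained above the interior in both MCM2-7 lists, by 8.39 and 7.94, while the ORC lists differed by 5.92, -0.63, -4.52 and -0.84. With the belt limited to 20 to 40 kb, MCM2-7 was higher by 16.0 and 20.9 and ORC differed by 6.16, 5.65, -12.3 and 1.08. When only events not below the median score of each list were kept, MCM2-7 was higher by 10.6 and 17.1, and ORC differed by -0.17, 17.4, -6.02 and 22.6. The higher place of MCM2-7 was therefore seen under these 3 settings, and the lower place of ORC in all its lists under none of them. The setting by score selects on the strength of the events themselves. Loci with only lower-scoring ORC events leave the ORC lists, and 17 of 40 belt loci stayed in all 4 of them. In the MCM2-7 lists it kept only events at the cap. This setting therefore cannot show whether the lower ORC median is stable. Under other settings ORC stayed lower in all 4 lists. The differences were -2.58 to -12.0 with the interior over 100 kb from both ends and -2.99 to -13.1 with a locus gap of 250 bp. They were -3.16 to -13.1 with a gap of 1000 bp and -5.36 to -14.2 without the 4 loci at the silent mating-type cassettes. MCM2-7 stayed higher in both lists under these too.

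A near-identical copy, at least 90% identical over at least 300 bp of the 601 bp around the centre, was found for 8 of 41 belt loci (19.5%, interval 10.2 to 34.0) and 1 of 288 interior loci (0.347%, 0.061 to 1.94). At 6 of the 8 the copy was another belt locus with identical letters over the whole 601 bp. ARS111, between the flocculin gene FLO1 and YAR061W, matched a locus at position 535624 on chromosome VIII, between the flocculin gene FLO5 and YHR212W-A, over 1957 identical bp. ARS403, between the hexose transporter gene HXT15 and THI13, matched ARS1023, between THI11 and HXT16, over 1499 bp in the opposite orientation. ARS904 and ARS1003, which lie between VTH1 and IMA3 and between VTH2 and IMA4 (IMA genes encode isomaltases), were identical over 2826 bp. The other copies were at ARS1235 and at the locus at 12909 on chromosome XVI.

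Events at identical sequences cannot be assigned to 1 chromosome by their letters alone, so the values of these 3 pairs are uncertain as to position. ARS111 was placed at 83.7 and 88.3 for MCM2-7, 95.4 and 97.1 for ORC in G1, and 94.8 and 81.7 for ORC in G2. Its copy on chromosome VIII was placed at 84.9, 88.8, 94.8, 95.7, 95.1 and 82.0 in the same order, never more than 1.45 away. Both had few events in spite of these high places, 7 and 8 over all lists, where the median belt locus had 26. ARS403 and ARS1023 differed by 3.15 to 23.2 places, and ARS904 and ARS1003 by 12.6 to 21.5 in the 5 lists that held both. Identical letters thus came with nearly equal places in the first pair and with less equal places in the others.

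MCM2-7 was placed highest in the belt at ARS922, between DAL2 and DCG1 of the allantoin gene cluster on chromosome IX. Its MCM2-7 places were 94.9 and 98.3. It was followed by ARS1004 (91.4 and 88.0), next to the isomaltase gene IMA5, and by ARS600.4 (87.4 and 89.7), between AGP3, a gene for an amino acid permease, and the aquaglyceroporin gene AQY3. The locus in HAB1 on chromosome II came next at 88.9 and 86.5, then the copy on chromosome VIII given above. At 3 of these 5 loci ORC stood far lower: in G1 and G2, the 4 ORC places ranged from 9.46 to 35.0 at the HAB1 locus, from 20.7 to 48.7 at ARS600.4 and from 20.1 to 64.8 at ARS1004. High MCM2-7 places thus came with both high and low ORC places.

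At the other end, the lowest MCM2-7 places among loci seen in both lists belonged to the locus at 15829 on chromosome XI (2.86 and 0.86), between COS9 and SRY1. It had 10 events in all, none in ORC G1 replicate 2 and none in ORC G2 replicate 1. ARS318 followed with 4.57 and 7.16, the locus at 17913 on chromosome VII, next to the zinc transporter gene ZRT1, with 11.7 and 4.30, ARS904 with 6.86 and 9.46, and the locus at 12909 on chromosome XVI with 16.3 and 3.15. The weakest locus of all, at 27521 on chromosome V between HPA3 and the siderophore transporter gene SIT1, had 5 events in 2 ORC lists and no MCM2-7 event. Its best match had 9 of the 11 consensus letters, whereas the locus on chromosome XI had all 11. A full match was therefore present at a locus with places of 0.31 to 2.86 in each of its 4 lists.

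**Figure D3:**
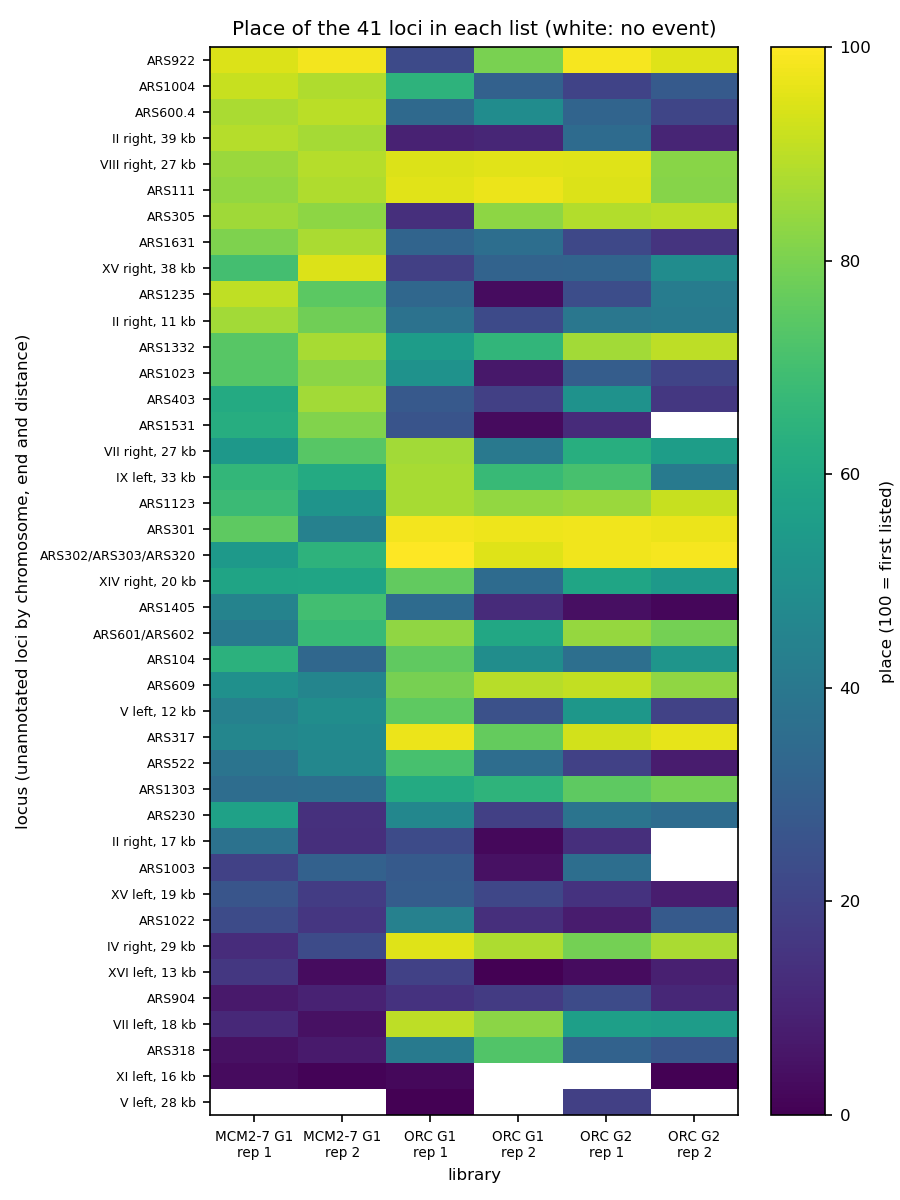
Place of each of the 41 belt loci (rows, ordered by mean MCM2-7 place) in each of the 6 lists (columns), where 100 is the first listed and white marks no event. The MCM2-7 columns resemble each other, and several loci in the middle and lower rows, among them ARS301, ARS317 and the chromosome VII locus, are high in ORC.

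An event in all 6 lists was found at 36 of 41 belt loci (87.8%, interval 74.5 to 94.7), where 91.2% of all 352 loci had one. The 5 exceptions were the chromosome XI and V loci, ARS1003, ARS1531 and a locus at 796657 on chromosome II, and at the last 3 only ORC G2 replicate 2, the shortest list, had no event. When only the upper-scoring events were kept, those not below the median score in each list, 16 of 40 belt loci and 181 of all 345 loci were in all lists. The most events were found at ARS302/ARS303/ARS320 (52), ARS601/ARS602 (42) and ARS230 (40). In the first 2 of these, several annotated ARSs overlapped a single locus, so their events need not come from a single origin.

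MCM2-7 and ORC places were set against each other at the 36 loci present in all lists. Both MCM2-7 places lay above all 4 ORC places at 10 of them (27.8%, interval 15.8 to 44.0), where 21.5% of all 321 loci tested did so. Both lay below all 4 ORC places at another 10 (27.8%), where the share over all loci was 22.1%. The shares over all loci lie within the intervals. Spearman's rho between mean MCM2-7 and mean ORC place was 0.09 over these 36 belt loci and 0.42 over 262 interior loci. This is a description over loci that share libraries and, for the identical pairs, sequence. Replicates had rho in the belt of 0.85 for MCM2-7 (n = 40 loci), 0.68 for ORC in G1 (n = 39) and 0.90 for ORC in G2 (n = 36). In the belt, ORC G1 replicate 2 resembled the G2 replicates (rho 0.83 and 0.80, n = 39 and 36) more than it resembled ORC G1 replicate 1. In the interior the order was the opposite, with rho 0.79 to ORC G1 replicate 1 (n = 283) and 0.72 and 0.70 to the G2 replicates (n = 283 and 262).

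**Figure D4:**
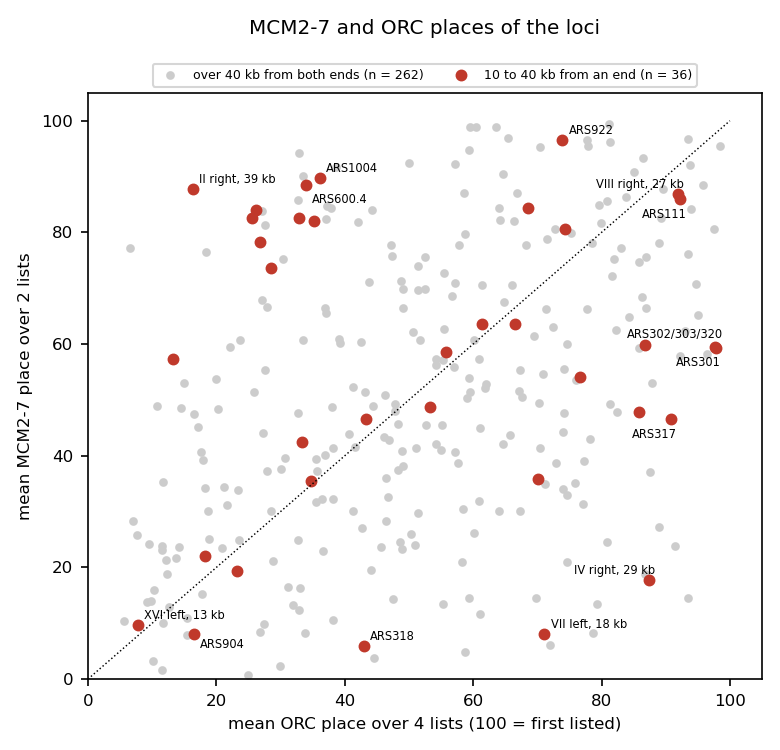
Mean MCM2-7 place over 2 lists (y axis) against mean ORC place over 4 lists (x axis) for the 36 belt loci in all lists (red) and 262 interior loci (grey), with 100 the first listed and the dotted line marking equal places. Belt loci lie at the upper left (high MCM2-7, low ORC) and at the right (high ORC), with ARS318 and the chromosome VII and IV loci at the bottom.

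The 10 loci with MCM2-7 below ORC included all 4 loci at the silent mating-type cassettes of chromosome III, a group that was singled out after its values were seen. ARS301, at the E silencer of HML, had ORC places of 98.3 and 97.4 in G1 and 98.0 and 96.9 in G2, and MCM2-7 places of 75.1 and 43.8. The locus of ARS302, ARS303 and ARS320, on the side of the I silencer of HML, next to HMLALPHA1, had ORC places of 100 and 95.1 in G1 and 97.7 and 98.8 in G2, and MCM2-7 places of 53.7 and 64.8. Both HML loci were thus among the first listed for ORC and stood lower in both MCM2-7 lists, in which the replicates of ARS301 lay far apart.

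ARS317, at the E silencer of HMR next to HMRA2, had ORC places of 97.1 and 76.5 in G1 and 93.1 and 96.3 in G2, with MCM2-7 at 45.7 and 47.3. ARS318, at the I silencer of HMR downstream of HMRA1, was lower in both factors, with ORC at 40.97 and 72.8 in G1 and 31.5 and 26.6 in G2 and MCM2-7 at 4.57 and 7.16. The mean MCM2-7 place minus the mean ORC place was -37.1 to -44.3 at these 4 loci. The reference annotation describes ARS301 and ARS302 as inactive origins that act as silencers, and ARS303 and ARS320 as inactive as origins at their native position. It describes ARS317 as a late and inefficient origin and ARS318 as an origin that is rarely active. Without these 4 loci, both MCM2-7 places lay below all 4 ORC places at 6 of 32 belt loci (18.8%), where 21.5% of all loci did so.

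The remaining loci of that kind were not at mating-type cassettes. At the locus at 1502793 on chromosome IV, between HSP31 and the cell wall gene FIT1, ORC stood at 95.1 and 87.8 in G1 and 79.1 and 87.3 in G2, but MCM2-7 at 12.6 and 22.9. At the chromosome VII locus next to ZRT1, the ORC places were 89.97 and 82.6 in G1 and 56.4 and 55.4 in G2. ARS609 and ARS1123, the latter between SIR1, which encodes a silencing protein, and FLO10, had ORC places of 79.7 to 90.8 and of 83.8 to 91.6, with mean MCM2-7 places of 47.9 and 59.8. ARS904 and ARS1303 completed the 10. All of these values are list orders and do not compare amounts of the 2 proteins.

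MCM2-7 and ORC events were also compared in position. The median distance between the first-listed MCM2-7 and ORC events in G1 at a locus, as means over the replicates, was 52.0 bp over 39 belt loci, 39.5 bp over all 345 loci and 40 bp over 283 interior loci. With each replicate number alone the belt median was 35.5 bp (replicate 1) and 68.0 bp (replicate 2), so the difference from the other loci was smaller than the spread between replicates. The nearest ORC event in G1, from either list, was at a median of 10 bp from the mean position of the first-listed MCM2-7 events. As a minimum over all ORC events of a locus, this distance shrinks with their number. It was not computed for the interior, so it says nothing particular about the belt. Within a condition, the first-listed events of the replicates were 22.5 bp apart for MCM2-7, 33.0 bp for ORC in G1 and 44.5 bp for ORC in G2 in the median belt locus. The distance between the factors varied widely. It was 2.50 bp at ARS301, where the MCM2-7 replicates lay 22 bp apart, and reached 203 bp at the chromosome IV locus and 217 bp at ARS601/ARS602.

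The last comparison asked whether ORC at these loci differed between G1- and G2-phase. The median place of the belt loci was 46.1 and 36.2 in G1 and 39.0 and 42.1 in G2, so the groups overlapped (difference of means 0.64, exact permutation p = 1, with 0.3333 the smallest p that 2 against 2 allows). Events per locus were 3.32 and 3.79 in G1 and 5.88 and 2.35 in G2 (difference -0.56, exact permutation p = 1). Of the 41 belt loci, 100 and 95.1% had an ORC event in G1 and 97.6 and 90.2% in G2 (difference 3.66 percentage points, exact permutation p = 0.667). The replicates of G2 lay further apart than the phases in the number of events, and the sign of that difference turned to 1.20 without ORC G2 replicate 1. The median place had a difference of -4.30 without ORC G1 replicate 1.

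At single loci, both G1 places lay above both G2 places at 10 of 36 belt loci (27.8%, interval 15.8 to 44.0), where 25.2% of all loci did so, and below both at 6 (16.7%, 7.87 to 31.9), where 20.6% of all loci did so. The belt shares are near those of all loci. Without ORC G1 replicate 2 the first count was 22 of 36 (61.1%, all loci 42.7%), and without ORC G1 replicate 1 the second was 16 of 36 (44.4%, all loci 38.0%), in part because fewer places have to be ordered. These counts therefore depend on single libraries. With places taken from the number of events per locus, both counts were 6 of 36 (16.7%), where 19.3 and 15.9% of all loci were counted.

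The largest difference upward in G1 was at ARS522, between DMC1 and ISC10, which code for meiotic proteins, with ORC places of 70.8 and 35.7 in G1 and 19.5 and 7.74 in G2. The chromosome VII locus next to ZRT1 (mean difference 30.4), ARS318 at HMR (27.8) and ARS1004 (23.6) followed. The chromosome VII locus had the tightest replicates of these, whereas at the others the G1 replicates lay over 30 places apart. The largest differences downward were at ARS922, with 22.3 and 79.7 in G1 and 98.6 and 95.05 in G2, and at ARS305, with 13.5 and 82.9 in G1 and 88.5 and 89.5 in G2. At both, most of the difference came from ORC G1 replicate 1. ARS1332, between GLC8 and ELP6, stood at 55.3 and 65.8 in G1 and 86.2 and 90.1 in G2 (mean difference -27.6), and the locus at 1053734 on chromosome XV at 18.9 and 31.9 against 32.4 and 48.6.

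**Figure D5:**
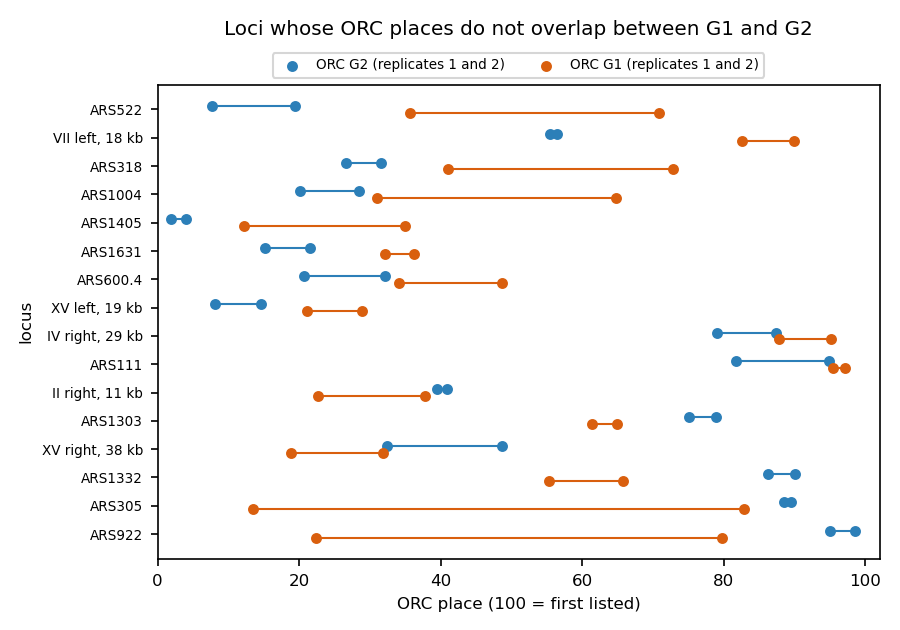
ORC places (x axis, 100 is the first listed) in G1 (orange) and G2 (blue) at the 16 belt loci whose G1 and G2 places do not overlap (10 higher and 6 lower in G1), with the replicates of a phase joined by a line. At ARS305 and ARS922 the G1 replicates are far apart, whereas at ARS1332 and the chromosome VII locus both phases are narrow.

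Several of the loci highest in ORC in G1 had like places in G2. The HML loci differed by less than 1 place in mean between the phases, ARS1123 by -3.08, ARS609 by -2.75 and ARS317 by -7.88. The first-listed ORC events of G1 and G2 were 22 bp apart in the median belt locus (n = 36 loci) and 27.5 bp over all 321 loci. These distances are between means of the replicate positions, which within G2 alone lay 44.5 bp apart in the median. At ARS922 the events lay at 411953 and 411970 in G1 and at 411969 and 411952 in G2, so that the phases covered the same positions. The means were 137.5 bp apart at ARS230 and 150.5 bp apart at the outermost locus of the belt, between MAL33 and MAL31 on chromosome II.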

How the data were processed

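ChIP-Exo 5.0 libraries of Mcm4 in G1 and Orc2 in G1 and G2 (2 biological replicates each) were analysed from the event lists. The authors aligned reads with Bowtie2 (version 2.3.5) to sacCer3 (R64) and called events per replicate with ChExMix (version 0.45, 1.5-fold, q-value threshold 0.01, no motif discovery, tRNA genes and rDNA left out). The score in the deposited lists was written by the authors' caller, is capped at 1000 and is not normalized between lists, so loci were compared by list order, and scores were used only for the share at the cap and for a stricter selection within each list. How reads from identical sequences were assigned to a copy, and differences of W303 from R64, could shift single loci.

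From the lists, loci, places and densities were computed as described above with Python 3.11.15, NumPy 2.4.6, pandas 2.3.3 and SciPy 1.17.1. Copies were sought with BLAST 2.17.0, and ARSs and genes come from RefSeq R64. Tests were exact permutation tests over libraries, with Benjamini-Hochberg adjustment over the 5 measures of belt against interior. The measures were checked on simulated lists, and the test functions on short made-up series of values. Named loci were the 5 highest and lowest by MCM2-7, the 4 largest ORC differences each way, loci in under 4 lists, the 3 with most events and those at the limits. Others were named after their values were seen. Members and lists were chosen with earlier results of these data known.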

Additional observations from a re-analysis of the deposited data

Results flagged for a closer look

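The difference in median place between the subtelomeric belt and the interior went in opposite directions for the 2 factors. It was 10.4 and 12.3 in the MCM2-7 lists (mean 11.4) and -3.01 to -12.6 in the 4 ORC lists (mean -9.12), a gap of 20.5 places between the means. The exact permutation test of 2 lists against 4 gave p = 0.0667, the smallest value it allows, and was chosen after the values were seen. The gap was 8.18 without loci that have a near-identical copy, 18.3 for the belt from 20 to 40 kb and 25.3 without the 4 loci at the silent mating-type cassettes. It was 5.43 (exact permutation p = 0.733) when each list was limited to events not below its median score. That limit takes loci with only lower-scoring ORC events out of the ORC lists, so its gap does not show whether the pattern is stable. The factors came from different strains, so strain and factor cannot be told apart. As events at the cap were more frequent for MCM2-7, its places also rest more on an order without scores to check it.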

How the results depend on the processing

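Of 162 values under alternative settings, 139 were scored as kept, 10 turned their direction and 13 moved further. Kept meant no change of sign for differences, within 1.5-fold for counts, and for the distance within the SD of its single-replicate values. The kept values include those with the replicate number as a block, which equal the values given above by construction, and a difference of 0. They also include the single-replicate distances, which were scored against their own SD and were thus nearly sure to be kept. The density stayed higher in the belt in every setting run (mean log2 difference 0.39 to 0.63, and 0.56 to 0.61 when single replicates were left out). It was lowest without the 4 mating-type loci (0.39, or 1.31-fold) and without copied loci (0.40, or 1.32-fold), beside 1.501-fold with all loci. The median place turned to 6.25 with the belt at 20 to 40 kb and to 2.71 without copied loci. It turned to 10.3 with only the events not below the median score of each list (stricter events), a setting that itself takes low-scoring loci out of the lists. When single replicates were left out it ranged from -5.21 to -0.23. Events per locus turned to 0.21 without copied loci (-0.25 to -0.14 with replicates left out), and events at the cap to -0.84 percentage points without the mating-type loci (-0.30 to 1.10 with replicates left out). The difference in the share with a partner in the other replicate, -2.85 percentage points, ranged from -3.78 to -1.56 with replicates left out and was -1.22 with a partner within 25 bp and -1.49 for the belt at 20 to 40 kb. With replicates left out the smallest possible p is 0.0625, so these tests say nothing about stability.

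For ORC in G1 against G2, the difference in median place was -2.80 with the stricter events and ranged from -4.30 to 5.59 without single replicates, events per locus from -2.32 to 1.20 and the share of loci from 0 to 7.32 percentage points. With the stricter events, 16 loci were in all lists, of which 0 had MCM2-7 above ORC (all loci 16.0%) and 7 below it (43.8%, all loci 22.1%). Of 17 loci in all ORC lists, 2 were higher in G1 (11.8%, all loci 20.2%) and 3 lower (17.6%, all loci 26.1%). To be counted here, a locus must keep a higher-scoring event in each of these lists. Loci high in MCM2-7 with only lower-scoring ORC events are thus left out by the selection, and these counts do not show how stable the main ones are. By number of events, 6 of 36 were higher in G1 (16.7%, all loci 19.3%), and 3 had MCM2-7 above and 3 below ORC (8.33% each, all loci 13.4% each). Without the mating-type loci, 6 of 32 had MCM2-7 below ORC (18.8%, all loci 21.5%). Without single replicates, 36 to 39 loci were in all lists (87.8 to 95.1%, all loci 91.2 to 97.7%), 11 to 22 were higher in G1 (30.6 to 61.1%, all loci 34.0 to 42.7%) and 8 to 16 lower (22.2 to 44.4%, all loci 31.9 to 38.0%). MCM2-7 was above ORC at 10 to 11 (27.8 to 30.6%, all loci 23.4 to 29.0%) and below at 10 to 13 (27.8 to 33.3%, all loci 23.8 to 31.2%). The distance was 10 bp to the nearest ORC event, a minimum over all ORC events in G1 at a locus, and 35.5 and 68.0 bp without replicate 2 or 1. Causes were not tested. With the replicate number as a block the differences stayed at 0.64, -0.56 and 3.66 (exact p = 1, 1 and 0.5). The samples share only a number, since replicate deviations in G1 and G2 had r = -0.0012 over 321 loci. Copied and mating-type loci, replicates left out of counts, and the MCM2-7 against ORC values were chosen as settings after seeing the data. Depth is unknown, which limits any statement on absent events.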
